A study of Mus musculus with 8 samples.

Results

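The genes described here were 10 transcription factor genes of medium spiny neuron identity, Foxp1, Foxp2, Isl1, Meis2, Ebf1, Bcl11b, Six3, Zfp503, Dlx5 and Dlx6, chosen by symbol from the 22337 genes of the deposited table. Their levels were followed in RNA-seq libraries of the nucleus accumbens, the ventral part of the striatum, from male C57BL/6 mice. There were 4 libraries from mice given morphine, an agonist of the mu opioid receptor, and 4 from mice given saline. The series asks what chronic morphine exposure does to the transcriptome of this region, and all animals were of the same strain, with no transgene named. The sources used here state no dose, schedule, age or time of dissection. Nor do they say that replicates came from separate mice, so the p-values cover only library-to-library spread, part or all of which may be technical.

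Medium spiny neurons are the GABAergic projection neurons that make up most of the striatum. They arise in the lateral ganglionic eminence, where Dlx homeodomain factors act early, and split into a direct pathway class with the D1 dopamine receptor and an indirect pathway class with the D2 receptor. Transcription factors that start or hold these fates often remain on in the adult neuron, so their transcripts are used as markers of the striatum, although most of them are also made in other cells.

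Values are FPKM, fragment counts scaled by the authors to transcript length and library size, so that levels of different genes can be set side by side. A change is the difference of mean log2(FPKM + 1), morphine minus saline, and understates the change of genes near or below an FPKM of 1. Tests are limma's moderated test over the 12536 genes that reached an FPKM of 1 in 4 or more libraries, with p-values adjusted by Benjamini-Hochberg over all of them and a threshold of 0.05. Of the 10 members 7 passed this filter, and Isl1 passed it only through its 4 saline values. Six3, Zfp503 and Ebf1 lay under the filter and were compared by an exact two-sided permutation test over the 70 assignments of the 8 libraries, whose smallest p is 0.0286.

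The libraries did not hold the same mixture of regional markers, so the values that bear on the results are given first. Saline replicate 3 had the highest saline value of all 10 members, 1.61 to 4.89 times the median of the other 3 saline libraries, where 31.1% of all tested genes had their highest saline value in it. Markers of medium spiny neurons differed widely in level. Ppp1r1b, which encodes DARPP-32, had 64.6 to 118 FPKM in the morphine libraries and 318 to 1455 in the saline libraries. Drd2, the D2 receptor gene, had only 0.17 to 0.55 FPKM in the morphine libraries and 1.85 to 23.1 in the saline libraries. The summed level of 22 effector genes of these neurons, among them Drd1, Adora2a and Ppp1r1b, was 370 to 527 FPKM in the morphine libraries. In the saline libraries it was 6180 FPKM in replicate 3 and 1260 to 1510 FPKM elsewhere. In that list 12 of 22 fell, none rose, and the median log2 change was −2.16, against 0.01 over all genes tested. The summed level of 15 cortical glutamatergic genes was 420 to 509 FPKM in the morphine libraries, against 114 FPKM in saline replicate 3 and 368 to 481 FPKM in its 3 companions. Slc17a7, the vesicular glutamate transporter gene of cortical neurons, had 106 to 139 FPKM in the morphine libraries, against 19.6 FPKM in saline replicate 3 and 90.8 to 98.0 FPKM in its companions. It was not called (log2 change 0.84, limma adjusted p = 0.307), nor without saline replicate 3 (0.29, limma adjusted p = 0.234). The 14 tested genes of that list had a median log2 change of 0.48, with 3 below 0. Among them 1 rose, Neurod1, a neurogenic factor gene of excitatory neurons (log2 change 1.14, limma adjusted p = 0.0471), and none fell. By the same test 3 of 9 endothelial, 2 of 9 astrocyte and 2 of 4 septal and hypothalamic marker genes fell. None of 8 oligodendrocyte genes, 7 microglial genes, 8 genes of other interneurons and 6 general neuronal genes was called. An unadjusted limma p under 0.05 was reached by 2, 0, 2 and 1 of them, and by 2526 of all 12536 tested genes. The part of these cell types in the results was not tested. In whole tissue, fewer cells of a type and less RNA per cell cannot be told apart.

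The start regions of 7 of the 10 members were matched in RefSeq (GRCm38.p6); Foxp2, Dlx5 and Dlx6 were not. Of the matched members whose groups did not overlap, Isl1, Six3 and Zfp503 are shown, each with 1 window free of the gene's own GENCODE exons. Foxp1, the other such member, is not shown, since its 3 windows each hold exon bases. Each line holds the 250 bases upstream of the RefSeq start, less 1 exonic base for Isl1; the Six3 window lies inside the longer extent that GENCODE gives this gene. Capitals mark matches, on either strand, to 5 short motifs. These were TAATTA, a core of homeodomain sites, then TGTTTAC, a core of forkhead sites, and TGACAG, a core of MEIS sites, as well as the promoter elements CCAAT and TATAAA. The matches in these windows do not overlap one another.
Isl1, chr13:116309690-116309938, minus strand: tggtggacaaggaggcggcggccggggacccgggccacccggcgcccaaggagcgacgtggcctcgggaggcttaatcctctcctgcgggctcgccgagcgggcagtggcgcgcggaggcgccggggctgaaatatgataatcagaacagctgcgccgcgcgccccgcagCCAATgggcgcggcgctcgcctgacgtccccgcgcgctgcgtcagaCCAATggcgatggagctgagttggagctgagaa
Six3, chr17:85620584-85620833, plus strand: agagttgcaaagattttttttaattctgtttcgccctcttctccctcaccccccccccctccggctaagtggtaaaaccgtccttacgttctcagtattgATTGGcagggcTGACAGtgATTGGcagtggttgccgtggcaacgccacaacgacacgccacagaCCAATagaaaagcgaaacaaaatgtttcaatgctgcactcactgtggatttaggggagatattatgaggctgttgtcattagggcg
Zfp503, chr14:21989602-21989851, minus strand: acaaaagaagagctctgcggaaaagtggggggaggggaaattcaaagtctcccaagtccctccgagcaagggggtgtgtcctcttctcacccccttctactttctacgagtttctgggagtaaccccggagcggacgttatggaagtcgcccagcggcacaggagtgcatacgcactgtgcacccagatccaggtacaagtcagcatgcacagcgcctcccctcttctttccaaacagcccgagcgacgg
The Isl1 window held 2 CCAAT boxes and 33 CG pairs, and 4.03% of the 32851 promoter windows of 250 bases in the table held as many. The Six3 window held 3 CCAAT boxes and 1 MEIS core, with 10 CG pairs. In the Zfp503 window, with 13 CG pairs, no match to these letters was found. Over all windows 33.8% held a CCAAT box, 15.9% a MEIS core, 12.4% a TATAAA, 4.84% the homeodomain core and 3.17% the forkhead core. The matches are a description of sequence and not sites of binding.

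Of the 7 tested members, Foxp2 and Isl1 fell with morphine and none was called higher, while 1.48% of all tested genes were called lower and 1.04% higher. Over all genes that was 186 lower and 130 higher, or 211 lower and 77 higher after removal of mitochondrially encoded genes and rescaling. At an unadjusted limma p under 0.05, 4 members were lower, with Foxp1 and Dlx6, and none higher. That p was reached, in either direction, by 2526 of all 12536 tested genes. The Isl1 call is not independent of the filter, which Isl1 passed only through its 4 saline values. The median log2 change of the 7 was −0.93, against 0.01 over all genes tested, and −0.53 against 0.02 without saline replicate 3. Across all 10 members the morphine and saline values did not overlap in 5 genes, Foxp1, Foxp2, Isl1, Six3 and Zfp503, each lower with morphine; Foxp1, Foxp2 and Isl1 among these were tested, and such a separation was seen in 6.1% of tested genes (6.56% with morphine higher) and in 3.56% of detected genes under the filter. In the other 5 members the groups overlapped. All 5 separations held without saline replicate 3.

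**Figure D1:**
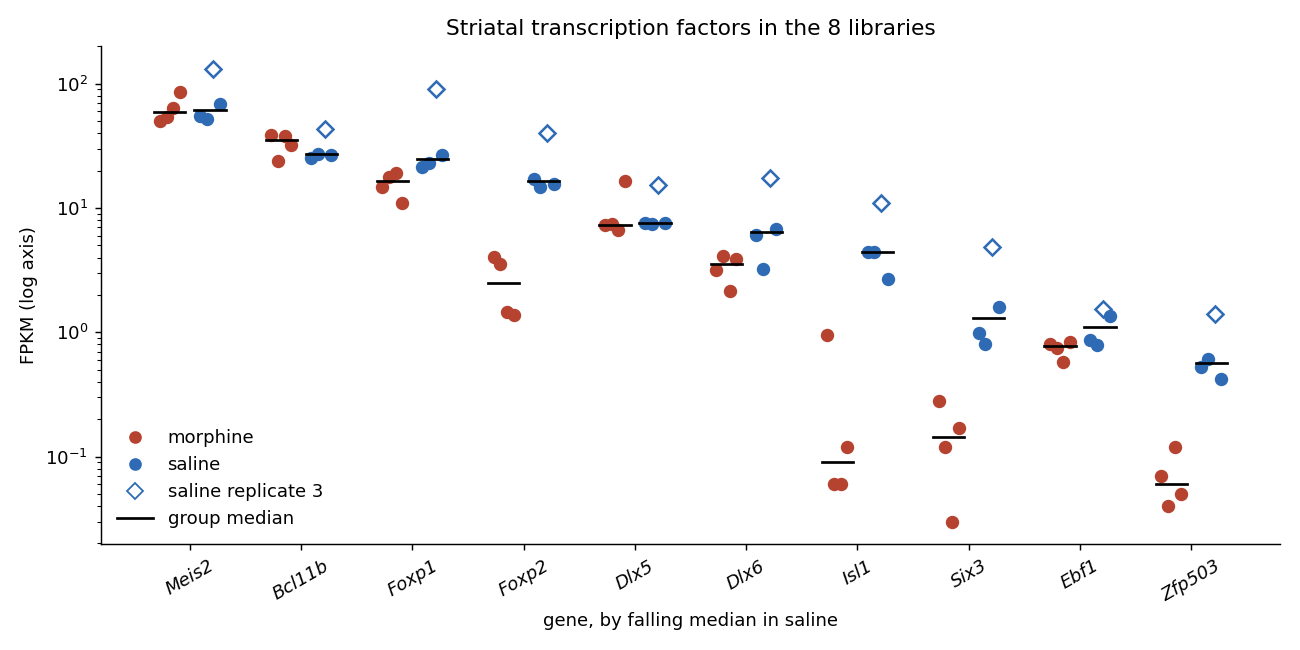
FPKM on a log axis of the 10 genes in each library, morphine left of saline, with black lines at group medians and an open diamond for saline replicate 3. The morphine and saline points separate in Foxp1, Foxp2, Isl1, Six3 and Zfp503 and overlap in the other 5 genes; the diamond is the highest saline point of every gene.

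The forkhead pair Foxp1 and Foxp2 encodes related repressors that can pair with each other. Foxp2, known for its part in vocal and motor learning and enriched in striatal projection neurons, lies on chromosome 6 (14901349 to 15441977, plus strand, GRCm38; ENSMUSG00000029563). It had 4.04, 3.52, 1.46 and 1.38 FPKM in morphine replicates 1 to 4, against 17.22, 14.66, 39.94 and 15.55 FPKM in saline replicates 1 to 4. The highest morphine value was below the lowest saline value by a factor of 3.63, and within the morphine group replicates 3 and 4 were lower than replicates 1 and 2. The means were 2.6 ± 1.38 FPKM with morphine and 21.8 ± 12.1 with saline (SD, n = 4 each), a log2 change of −2.63 ± 0.34 (SE; 95% confidence interval −3.38 to −1.87; limma adjusted p = 0.0159). Without saline replicate 3 the log2 change was −2.30 (limma adjusted p = 0.005). The call was lost on leaving out morphine replicate 3, morphine replicate 4 or saline replicate 2 (limma adjusted p of 0.0653, 0.0621 and 0.068), settings in which limma called no gene of the whole table (1953, 2136 and 2005 at an unadjusted p under 0.05).

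Foxp1, which is expressed in both classes of medium spiny neuron and also in cortex, lies elsewhere on chromosome 6 (98925338 to 99522721, minus strand; ENSMUSG00000030067). Its level was 14.80, 17.94, 19.19 and 10.93 FPKM in the morphine libraries, against 21.52, 23.20, 91.23 and 26.72 FPKM in the saline libraries. The groups did not overlap, but the gap between them was a factor of 1.12 and saline replicate 3 held 3.93 times the median of the other saline libraries. Foxp1 did not pass (log2 change −1.07 ± 0.39 SE, 95% confidence interval −1.94 to −0.20, limma adjusted p = 0.169). Without saline replicate 3 its log2 change was −0.59 (limma adjusted p = 0.117).

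The proportion of the 2 forkhead genes was also compared. Foxp2 amounted to 0.273, 0.196, 0.0761 and 0.126 of the Foxp1 level in the morphine libraries and to 0.8, 0.632, 0.438 and 0.582 in the saline libraries. The ratio does not depend on how libraries are scaled, and its log2 differed by −1.99 between groups without overlap (exact two-sided permutation p = 0.0286, the smallest possible; 0.0571 after adjustment over the 2 within-family ratios computed). These ratios were chosen after the values were seen. The related Foxp4, at 26.3 ± 4.64 FPKM with morphine and 19.9 ± 1.77 with saline (SD, n = 4 each), was not called (limma adjusted p = 0.163). Among the 14 tested genes that the authors' table assigns to the fork head family, Foxp2 alone passed, where 1.48% of all tested genes were called lower and 1.04% higher.

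Isl1, a LIM-homeodomain factor, is needed for the direct pathway class and is also kept on in cholinergic interneurons. The gene lies on chromosome 13 (116298281 to 116309689, minus strand; ENSMUSG00000042258), just downstream of the CG-rich window printed above. It had 0.96, 0.06, 0.06 and 0.12 FPKM in the morphine libraries, against 4.47, 4.47, 10.97 and 2.70 FPKM in the saline libraries. Morphine replicate 1 stood far above the other morphine libraries and was still a factor of 2.81 below the lowest saline value. The log2 change was −2.27 ± 0.34 (SE; 95% confidence interval −3.01 to −1.53; limma adjusted p = 0.0207), and −1.94 without saline replicate 3 (limma adjusted p = 0.00726). Since Isl1 passed the filter only through its 4 saline values, this call is not independent of the filter. As for Foxp2, the call was lost when morphine replicate 3, morphine replicate 4 or saline replicate 2 was left out (limma adjusted p of 0.0767, 0.0631 and 0.068). Of 38 tested genes that the authors' table assigns to the homeobox family, Isl1 alone passed, with a median log2 change of 0.03 over the family. Over all tested genes 1.48% were called lower and 1.04% higher, so a single call among 38 is near the general share.

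Markers of both cell types that use Isl1 are given beside it. Of 6 direct pathway genes, all tested, 3 fell and none rose, where 1.48% of all tested genes were called lower. Chrm4, Eya1 and Sfxn1 overlapped between groups and were not called. Their log2 changes were −0.27, 0.29 and −0.04 (limma adjusted p of 0.646, 0.496 and 0.906). Drd1, the D1 receptor gene, had 2.16 to 7.16 FPKM in the morphine libraries and 19.9 to 87.2 in the saline libraries (log2 change −2.80, limma adjusted p = 0.0207). That call was lost when morphine replicate 2, 3 or 4 or saline replicate 2 was left out (limma adjusted p of 0.0561 to 0.0821), without the filter (0.0621), with the replicate block (0.0537) and with the effector mean as a covariate (0.487). Drd1 is itself among the genes averaged into that covariate, so the loss in that setting was partly built in. Among 7 cholinergic genes 1 of 4 tested fell, and 5 of the 7 were lower with no overlap between groups. The called gene was Chat, which encodes the enzyme that makes acetylcholine, with 0.38, 0.34, 0.20 and 0.10 FPKM in the morphine libraries and 1.65, 2.21, 8.56 and 1.91 in the saline libraries (log2 change −1.65 ± 0.35 SE, limma adjusted p = 0.0449). Chat, like Isl1, passed the filter only through its 4 saline values, so its call is not independent of the filter. It also rested on several libraries: leaving out any one of the morphine libraries, saline replicate 1 or saline replicate 2 gave limma adjusted p-values of 0.0595 to 0.135. The vesicular acetylcholine transporter gene Slc18a3 also passed the filter through its saline values alone and had a log2 change of −1.47 (limma adjusted p = 0.0598). It crossed the threshold without saline replicate 3 (−1.04, limma adjusted p = 0.0142), without saline replicate 4 (−1.65, 0.0455), with library weights (−1.20, 0.029) and with a pseudocount of 0.1 (−2.94, 0.0315). The summed level of the 7 genes was 26.3 to 33.7 FPKM with morphine and 33.0 to 103 with saline, of which Ache, expressed by many neurons, made up 24.7 to 32.6 FPKM with morphine and 27.7 to 72.3 with saline. The part of either cell type in the Isl1 value was not tested.

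Six3 and Zfp503 (also called Nolz1) are factors of the developing striatum, Six3 being tied to the indirect pathway class. Six3 (chromosome 17, 85613608 to 85629302, plus strand) had 0.28, 0.12, 0.03 and 0.17 FPKM in the morphine libraries, against 0.99, 0.80, 4.84 and 1.61 FPKM in the saline libraries. The groups were separated by a factor of 2.86, and saline replicate 3 was 4.89 times the median of the other saline libraries. The difference of −1.25 on the log2(FPKM + 1) scale had an exact two-sided permutation p of 0.0286, the smallest possible, not adjusted for the number of genes. Without saline replicate 3 it was −0.88, at the smallest exact permutation p then possible, 0.0571. The antisense genes Six3os1 and Gm28528 overlap Six3, and the protocol names no strand marking, so reads from them cannot be told apart from Six3.

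Zfp503 (chromosome 14, 21983959 to 21989601, minus strand) had 0.07, 0.04, 0.12 and 0.05 FPKM in the morphine libraries, against 0.53, 0.61, 1.41 and 0.42 FPKM in the saline libraries. It has 1 annotated transcript of 4216 bases, so its values could be turned into estimated fragments: 5.7, 2.3, 7.1 and 3.0 in the morphine libraries and 34.0, 37.0, 87.0 and 21.8 in the saline libraries. All 4 morphine values thus rested on few fragments, and the groups were separated by a factor of 3.5. The log2 difference was −0.67 (exact two-sided permutation p = 0.0286, the smallest possible, unadjusted), and −0.51 without saline replicate 3 (exact permutation p = 0.0571, again the smallest possible).

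Ebf1, which directs differentiation of direct pathway neurons in the embryo and is also a marker of mural cells of vessels, did not separate the groups. It had 0.80, 0.75, 0.58 and 0.83 FPKM in the morphine libraries, against 0.86, 0.79, 1.53 and 1.35 FPKM in the saline libraries. The log2 difference was −0.28 (exact two-sided permutation p = 0.0857). Among 10 mural genes 1 of 7 tested fell, the vitronectin gene Vtn at 32.5 ± 4.27 FPKM with morphine and 66.4 ± 13.4 with saline (SD, n = 4 each; limma adjusted p = 0.0207), and their summed level was 52.0 to 66.1 FPKM with morphine and 81.1 to 132 with saline; the part of these cells in the Ebf1 value was not tested. The antisense gene Gm12158 overlaps Ebf1.

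Meis2, Bcl11b and Dlx5 had levels in the morphine libraries that overlapped those in the saline libraries. Meis2, a TALE homeodomain factor of the striatum and of olfactory bulb interneurons, was the most abundant member. It had 49.90, 53.64, 64.08 and 86.02 FPKM in the morphine libraries and 55.23, 52.06, 132.58 and 68.74 FPKM in the saline libraries. Its log2 change was −0.20 (95% confidence interval −0.82 to 0.41; limma adjusted p = 0.726), and 0.09 without saline replicate 3 (limma adjusted p = 0.847). The interval leaves room for a change of either sign.

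Bcl11b, also called Ctip2, is a zinc finger factor of all medium spiny neurons and of deep-layer cortical projection neurons. It had 38.69, 23.79, 38.22 and 32.09 FPKM in the morphine libraries and 25.52, 27.30, 43.26 and 26.79 FPKM in the saline libraries. Its log2 change was 0.12 (95% confidence interval −0.32 to 0.55; limma adjusted p = 0.785). Without saline replicate 3, whose companions lay close together at 26.5 ± 0.917 FPKM (SD, n = 3), it was 0.29 (limma adjusted p = 0.381), and with the effector mean as a covariate 0.74 (limma adjusted p = 0.405). Its paralog Bcl11a, which is expressed in cortex, hippocampus and striatum, rose; it was the 1 paralog called among 7 tested. Bcl11a had 57.1, 49.0, 67.1 and 57.1 FPKM in the morphine libraries and 40.0, 35.9, 32.9 and 42.0 in the saline libraries (log2 change 0.60 ± 0.12 SE, limma adjusted p = 0.0402). That call was lost when any library other than saline replicate 4 was left out (limma adjusted p of 0.052 to 0.129).

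**Figure D2:**
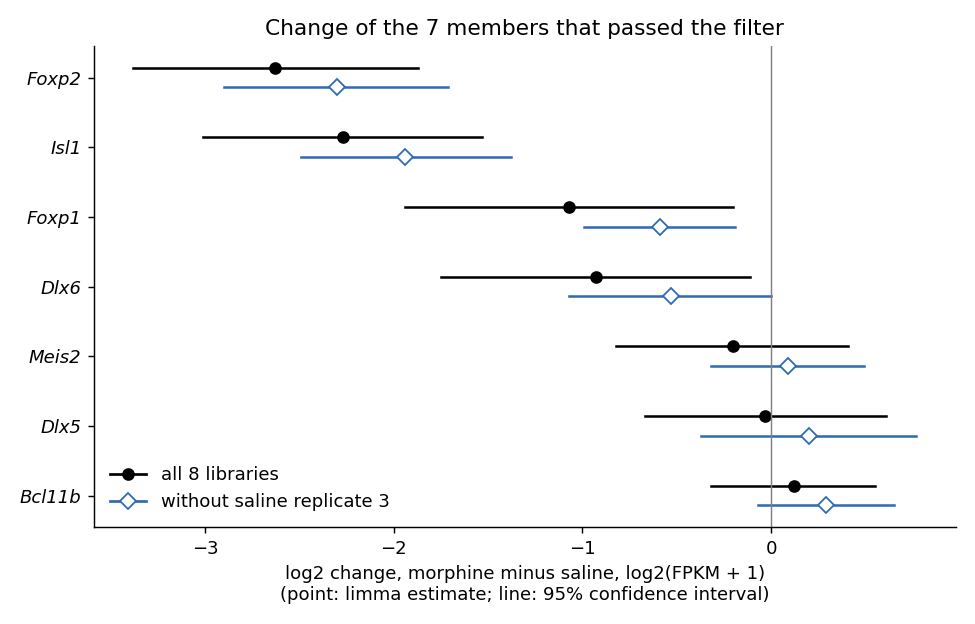
Log2 change, morphine minus saline, of the 7 tested members with 95% confidence intervals from limma, over all 8 libraries (filled) and without saline replicate 3 (open). Foxp2 at −2.63 and Isl1 at −2.27 lie apart from Meis2, Dlx5 and Bcl11b, whose intervals span 0.

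The neighbouring homeodomain genes Dlx5 and Dlx6 form a convergent pair on chromosome 6 with 9.2 kb between their ends (Dlx6 at 6863334 to 6868568, plus strand; Dlx5 at 6877805 to 6882085, minus strand). Both act in the differentiation of forebrain GABAergic neurons. Dlx5 had 7.35, 7.40, 6.63 and 16.38 FPKM in the morphine libraries, against 7.65, 7.48, 15.22 and 7.53 FPKM in the saline libraries. Each group held 1 library about 2 times above the rest, morphine replicate 4 and saline replicate 3, and the others lay within 6.63 to 7.65 FPKM. The log2 change was −0.03 (95% confidence interval −0.67 to 0.61; limma adjusted p = 0.968), and 0.20 without saline replicate 3 (limma adjusted p = 0.739).

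Dlx6 had 3.17, 4.08, 2.17 and 3.92 FPKM in the morphine libraries, against 6.10, 3.23, 17.56 and 6.84 FPKM in the saline libraries. Saline replicate 2 lay inside the morphine range, and the log2 change of −0.93 did not pass (95% confidence interval −1.75 to −0.11; limma adjusted p = 0.195). Without saline replicate 3 it was −0.53 (limma adjusted p = 0.276). Dlx6 amounted to 0.431, 0.551, 0.327 and 0.239 of the Dlx5 level in the morphine libraries and to 0.797, 0.432, 1.15 and 0.908 in the saline libraries. The log2 of this ratio differed by −1.07, with overlap (exact two-sided permutation p = 0.0571, also 0.0571 after adjustment over the 2 ratios). Dlx6os1 and Dlx6os2 overlap Dlx6 on the opposite strand, so reads from them may count as Dlx6.

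Morphine replicate 4, high for Dlx5 and with the highest morphine value of Meis2, was also high for other factors of ventral forebrain GABAergic neurons. In a list of 20 further striatal and ganglionic eminence factors it held the highest morphine value of 9, against 20.6% of all tested genes. Saline replicate 3 held the highest saline value of 9 of the 20, against 31.1% of all tested genes. The level in morphine replicate 4 was 22.7 FPKM for Dlx1, 7.86 for Sp8, 4.17 for Meis1 and 10.5 for Pbx3, which was 1.95, 2.87, 3.42 and 3.09 times the median of the other 3 morphine libraries. Gad1, which encodes a GABA-synthesizing enzyme, had 272 FPKM there, 2.72 times the median of the other 3. Ppp1r1b was at 65.0 FPKM in that library, within the 64.6 to 118 of the other morphine libraries. Foxp1 and Foxp2 had their lowest morphine values in it.

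**Figure D3:**
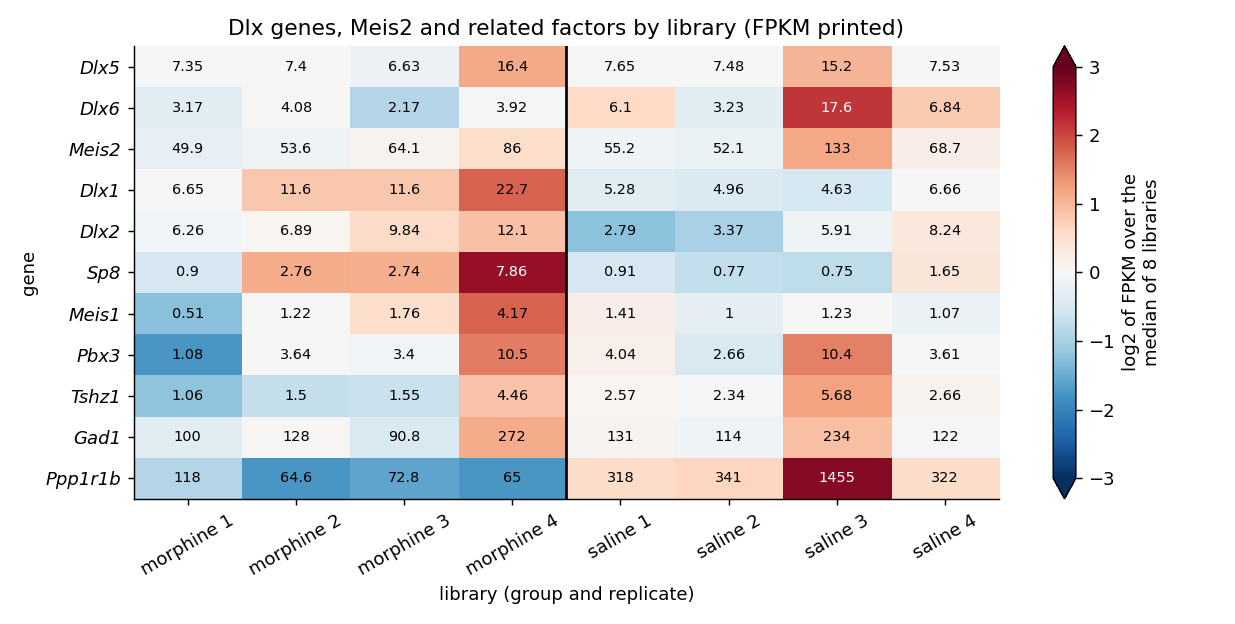
FPKM of Dlx5, Dlx6, Meis2 and 8 other genes in each library, coloured by log2 of the value over the median of the 8 libraries, morphine left of the black line. Dlx1, Sp8, Meis1, Pbx3 and Gad1 peak in morphine replicate 4 with Dlx5, while Ppp1r1b, Meis2, Dlx6 and Tshz1 peak in saline replicate 3. Saline replicate 3 is close to morphine replicate 4 for Dlx5 (15.2 against 16.4 FPKM), Pbx3 (10.4 against 10.5) and Gad1 (234 against 272). The genes other than the 3 members were chosen after their values were seen.

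None of the 18 tested genes in that list of 20 further factors passed limma's test in either direction, and the median log2 change was 0.12, against 0.01 over all genes tested. At an unadjusted limma p under 0.05, 3 of the 18 were lower and 4 higher, where 2526 of all 12536 tested genes reached that p. Rarb, a retinoic acid receptor gene of the striatum, came closest among the lower ones. It had 7.58, 5.34, 3.32 and 4.08 FPKM in the morphine libraries and 12.69, 21.58, 120.02 and 21.74 in the saline libraries, without overlap (log2 change −2.37 ± 0.55 SE, limma adjusted p = 0.0518). Without saline replicate 3 its log2 change was −1.70 and it passed (limma adjusted p = 0.0111). Zfp521 and Foxo1 also had no overlap, with log2 changes of −0.83 and −0.84 (limma adjusted p of 0.0927 and 0.184). Without saline replicate 3 these were −0.62 and −0.46 (limma adjusted p of 0.138 and 0.206). For Foxo1 the highest morphine value was 1.46 FPKM and the lowest saline value 1.49. A separation with morphine lower was seen in 6.1% of all tested genes. Dlx1 had 13.1 ± 6.77 FPKM with morphine and 5.38 ± 0.892 with saline (SD, n = 4 each) and missed the threshold (log2 change 1.04, limma adjusted p = 0.08). It passed when morphine replicate 1, the lowest of its group, was left out (limma adjusted p = 0.0414).

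The members were then set against the 22 effector genes library by library, as a description with no test. The 6 members with an FPKM of at least 1 in every library were used, since lower values carry little on this scale. Relative to the mean log2 level of the effector genes, Foxp2 stood at −1.40 with morphine and −0.89 with saline. The groups overlapped through saline replicate 3 alone, at −1.57, and without it Foxp2 was lower with morphine by a difference of −0.74, with no overlap. The other 5 stood higher with morphine in all 4 libraries, with or without saline replicate 3. The difference was 1.04 for Foxp1, 1.18 for Dlx6, 1.90 for Meis2, 2.08 for Dlx5 and 2.23 for Bcl11b. The effector mean itself was 2.95 to 3.41 in the morphine libraries and 4.57 to 6.92 in the saline libraries. Any gene whose level did not change would therefore also stand higher with morphine on this scale, so the direction is not particular to these members. The effector genes had a median log2 change of −2.16, the nearest to which among the 6 was the −2.63 of Foxp2. Isl1, left out here for its low morphine values, was nearer still at −2.27, which understates its change at these levels. Relative to the effector mean Isl1 differed by −0.16 between groups, with overlap with or without saline replicate 3.

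**Figure D4:**
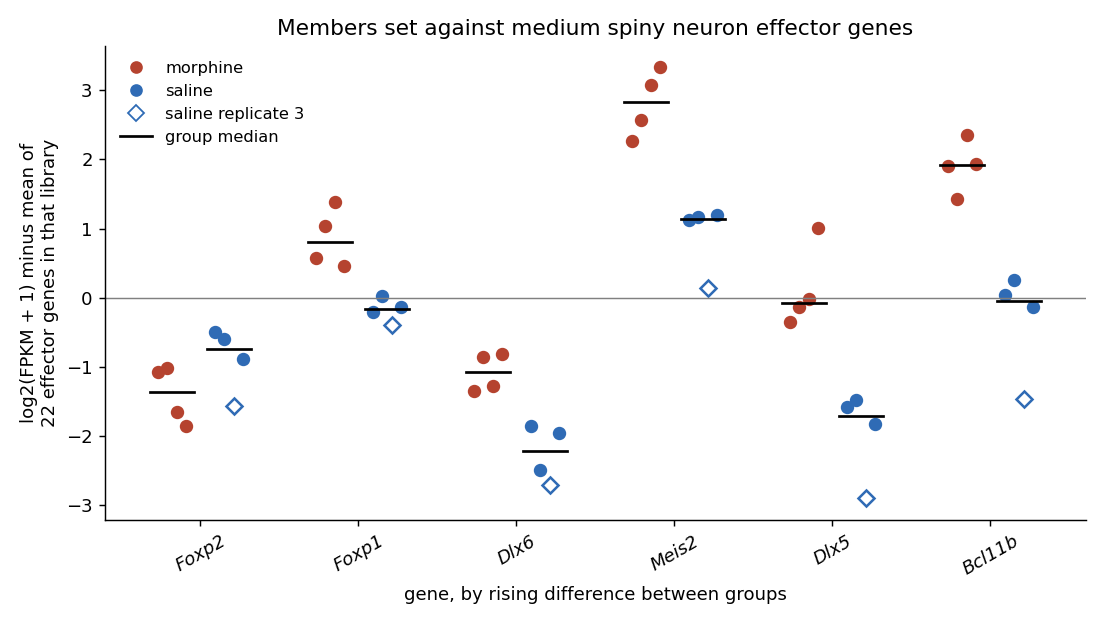
Log2(FPKM + 1) of 6 members minus the mean of 22 medium spiny neuron effector genes in the same library, morphine left of saline, with black lines at group medians. The groups overlap for Foxp2, through saline replicate 3 (open diamond) alone, and are separate for the other 5, with differences of 1.04 for Foxp1 to 2.23 for Bcl11b. The effector mean was itself lower with morphine, so a gene with no change would also stand higher with morphine here.

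The order of levels also differed between the groups. With morphine, by median, it ran Meis2 (58.9 FPKM), Bcl11b (35.2), Foxp1 (16.4), Dlx5 (7.38), Dlx6 (3.54), Foxp2 (2.49), Ebf1 (0.775), Six3 (0.145), Isl1 (0.09) and Zfp503 (0.06). Neighbours whose ranges overlapped there were Foxp1 and Dlx5, Dlx6 and Foxp2, Six3 and Isl1, and Isl1 and Zfp503. With saline it ran Meis2 (62.0 FPKM), Bcl11b (27.0), Foxp1 (25.0), Foxp2 (16.4), Dlx5 (7.59), Dlx6 (6.47), Isl1 (4.47), Six3 (1.3), Ebf1 (1.10) and Zfp503 (0.57). All neighbours there overlapped in range except Meis2 and Bcl11b. By median, Foxp2 stood below both Dlx genes with morphine and above both with saline. Isl1 stood, by median, below Ebf1 and Six3 with morphine and above both with saline. Morphine replicates 1 and 3 departed from this order. In replicate 1 Isl1 (0.96 FPKM) was above Ebf1 (0.80) and Six3 (0.28), and Foxp2 (4.04) was above Dlx6 (3.17). In replicate 3 Isl1 (0.06 FPKM) was above Six3 (0.03), both near the floor.

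The 2 tested genes whose log2 levels over the 8 libraries were most like each member differed between members. For Foxp2 they were Scn4b, a sodium channel subunit gene of medium spiny neurons, and Dmpk (Pearson r of 0.989 and 0.984), and for Isl1 Mxra8 and Parp3 (0.994 and 0.989). For Foxp1 they were Abcc10 and Dclk3 (0.989 and 0.987), and for Dlx6 Glce and Prkacb (0.987 and 0.984). For Dlx5 they were Fam20c and Gad1 (0.980 and 0.972). For Meis2 they were Pcif1 and Hap1 (0.990 and 0.968), and for Bcl11b Map1s and Inpp1 (0.975 and 0.971). With 8 libraries, of which 1 stood far from the rest in many of these genes, such values are a description only.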

How the data were processed

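The 8 libraries (4 morphine, 4 saline) were made from total RNA of the nucleus accumbens. Per the labels' protocols, oligo-dT priming and template switching gave cDNA that was PCR-amplified before sequencing, with no molecular identifiers and no strand marking named. The authors deposited 1 table of FPKM values, rounded to 2 decimals, with 1 column per library per the file headers. The build was mm10, and the tools were RSEM, HISAT2, StringTie 1.3.1, Bowtie2 2.2.8 and fastp 0.18.0, per the submitters' processing notes, which give neither their roles nor the annotation.

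Members were found by Ensembl ID through GENCODE M21 (GRCm38), which matched 22232 of 22337 IDs and also gave the coordinates; all 10 were found. Isl1, Ebf1 and Zfp503 carry other spellings in the deposited table. The members and the gene lists were chosen with earlier results of these data known. FPKM gives no read total, but values of genes with 1 transcript, multiplied by transcript length, fell on whole multiples in 72.9 to 80.2% of 226 to 303 low values per library (within 0.15, where even spread gives 30%). Read as fragments, this gave an estimated 12300000 to 19300000 fragments per library. Since not all values were whole, no count model was run.

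Values of log2(FPKM + 1) were tested with limma 3.58.1 (R 4.3.3; empirical Bayes with a mean-variance trend, no covariate, two-sided). Exact permutation tests used SciPy 1.17.1. Named were all members, list genes past the threshold, defining markers, and the 2 genes most like each member by Pearson correlation; Rarb, Zfp521, Foxo1, Dlx1, Sp8, Meis1, Pbx3, Foxp4, Slc18a3, Ache and Gad1 were chosen from these lists after their values were seen. On data simulated for these 12536 genes with 200 changed, limma found 77.1% of changes of 1 and 97% of changes of 2 (log2), with 4.7% false calls. The simulation drew each gene independently, with normal spread and no library set apart from its group. Its rates therefore cannot be carried over to the real libraries, where genes moved together and a saline library stood apart. Same-numbered libraries did not deviate together (correlations of 0.05, 0.04, −0.06 and −0.20), so the replicate numbers were not used to pair them.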

Additional observations from a re-analysis of the deposited data

Results flagged for a closer look

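In groups of 4, a library was listed when its gap to the nearest other, as a share of the group's range, was above Dixon's 95% critical value. Of 20 groups (10 genes, 2 groups each) 6 were listed, where chance gives about 1 in 20. Morphine replicate 4 was set apart for Dlx5 (16.38 FPKM) and morphine replicate 1 for Isl1 (0.96 FPKM), both as the highest of their group. Saline replicate 3 was set apart, as the highest, for Dlx5 (15.22 FPKM), Foxp1 (91.23 FPKM), Foxp2 (39.94 FPKM) and Bcl11b (43.26 FPKM).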

How the results depend on the processing

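Members called lower, 2 in the reported fit (Foxp2 and Isl1), numbered 0 without a filter on low values (limma adjusted p of 0.052 and 0.0548), 0 with the replicate number as a block (0.0537 for each), 0 with the effector mean as a covariate and 1 with an FPKM of at least 5, where Isl1 was not tested. Leaving out one library gave 0 to 2 members lower and 0 higher. Over all genes, 186 lower and 130 higher calls became 9 and 8 without the filter, 3 and 2 with the replicate block, 1 and 2 with the covariate, 402 and 304 with library weights, and 0 to 252 and 0 to 198 when one library was left out. An FPKM of at least 5 gave 111 lower, and dropping the variance trend gave 84 higher. After removal of the genes of the mitochondrial genome and rescaling, 77 were higher, 26.7% of calls where it had been 41.1%. With the effector covariate the log2 change turned to 0.67 for Foxp1, 0.84 for Meis2, 0.80 for Dlx5, 0.65 for Dlx6, 0.22 for Rarb, 0.06 for Zfp521, 0.63 for Foxo1, 0.14 for Slc18a3, 0.09 for Slc5a7 and −1.13 for Slc17a7, none of which passed; those of Foxp2 and Isl1 were −1.29 and −1.01 (limma adjusted p of 0.285 and 0.432). Library weights turned Meis2 to 0.04 and Dlx5 to 0.16. On leaving out one library Meis2 ranged between −0.36 and 0.09 (without saline replicate 3) and Dlx5 reached −0.31, while it turned to 0.05, 0.04, 0.09 and 0.20 without morphine replicates 1, 2 and 3 and saline replicate 3. The cause of these moves was not tested. The effector mean was lower in every morphine library than in every saline library, so adjusting for it also takes out part of the group difference. With 3 libraries in a group the exact test cannot go below 0.0571. The Foxp2 to Foxp1 ratio kept its sign in every such setting, with log2 differences of −2.28 to −1.66.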
